A study of Mus musculus with 10 samples.

Results

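The 10 genes described here, which alveolar type 2 cells use to make and recycle lung surfactant, were followed across 10 mouse lungs. They are the surfactant protein genes Sftpa1, Sftpb, Sftpc and Sftpd, the lamellar body genes Abca3, Lamp3 and Napsa, the phospholipid enzyme gene Lpcat1, the phosphate transporter gene Slc34a2 and the transcription factor gene Nkx2-1. A gene was measured where the array annotation gave a probe set its symbol alone, and 9 of the 10 were, among 12393 genes in all. Lamp3 was not measured, because its only probe set is also assigned to Ppid. The 9 genes had 15 probe sets, and each gene is represented by the one with the highest mean over all 10 arrays, with the others given as a check.

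The lungs came from male C57BL/6 mice aged 6 to 8 weeks. Both groups had the same strain, sex and age. The 5 mice of the control group were kept in normoxia, and the 5 mice of the other group were exposed to intermittent hypoxia, in which inspired oxygen falls and recovers in cycles. The depth, timing and duration of the cycles are not given in the sources used here. Total RNA of the whole lung of each mouse was hybridised to a separate array (Affymetrix Mouse Genome 430A 2.0), so values are probe set levels on a log2 scale, and 1 unit is a doubling.

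Type 2 cells are cuboidal cells of the alveolar wall. They store surfactant, a mixture of phospholipid and protein, in lamellar bodies and release it onto the air-liquid surface, where it lowers surface tension. Its small hydrophobic proteins SP-B and SP-C help the lipid spread, while the larger collectins SP-A and SP-D bind microbes and take part in surfactant turnover. The homeodomain factor NKX2-1 and forkhead factors of the FOXA family are well known activators of these genes.

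Promoters of 4 of the genes are shown. They cover a collectin gene, the SP-B gene, and Abca3 and Lpcat1, of which only some probe sets passed the test below. They are RefSeq sequences of build GRCm38.p6, 250 bases before the start given in RefSeq's promoter table, written 5′ to 3′. For Abca3 that start lies inside the gene's annotated span, so the end of its window lies within the gene, while the other 3 windows end at their gene's edge. Capitals mark the letters CTCAAG, a core recognised by NKX2-1, and TGTTTNC, a forkhead core, searched on both strands.
Sftpa1, chr14:41131538-41131787, plus strand: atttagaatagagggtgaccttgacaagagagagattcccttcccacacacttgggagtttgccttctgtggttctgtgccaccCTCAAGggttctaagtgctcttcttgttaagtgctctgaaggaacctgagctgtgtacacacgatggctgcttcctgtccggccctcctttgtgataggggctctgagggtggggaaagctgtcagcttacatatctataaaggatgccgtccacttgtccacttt
Sftpb, chr6:72304360-72304609, plus strand: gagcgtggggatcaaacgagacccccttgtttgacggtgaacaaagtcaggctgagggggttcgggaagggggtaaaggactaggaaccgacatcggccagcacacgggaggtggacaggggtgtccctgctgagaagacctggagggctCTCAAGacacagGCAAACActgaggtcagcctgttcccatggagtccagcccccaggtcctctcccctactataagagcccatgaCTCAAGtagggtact
Abca3, chr17:24351773-24352022, plus strand: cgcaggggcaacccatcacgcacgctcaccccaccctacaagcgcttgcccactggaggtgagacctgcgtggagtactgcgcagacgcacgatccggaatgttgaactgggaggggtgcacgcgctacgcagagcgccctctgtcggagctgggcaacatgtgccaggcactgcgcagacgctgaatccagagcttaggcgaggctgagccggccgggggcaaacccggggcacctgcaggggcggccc
Lpcat1, chr13:73466981-73467230, plus strand: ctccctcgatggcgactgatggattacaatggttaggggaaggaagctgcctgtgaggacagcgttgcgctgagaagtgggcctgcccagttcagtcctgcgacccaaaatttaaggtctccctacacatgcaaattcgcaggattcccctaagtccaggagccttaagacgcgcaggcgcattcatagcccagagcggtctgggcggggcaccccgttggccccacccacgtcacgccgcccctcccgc
The NKX2-1 letters occurred at 2 places in the Sftpb window, 100 to 95 and 15 to 10 bases before the start, and at 1 place in the Sftpa1 window. A forkhead match, on the minus strand, lay at bases 88 to 82 of the Sftpb window. The Sftpb matches did not overlap each other. The Abca3 and Lpcat1 windows held neither set of letters. CTCAAG occurred in 13.3% and TGTTTNC in 17.8% of 32851 promoter windows of this length, and a match is a description of letters only. RefSeq windows were present for 7 of the 10 genes, and Sftpc, Sftpd and Napsa had no entry in the table.

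The lowest value of any probe set on an array lay between 3.99 and 4.05. The transcripts of the 9 genes lay above that floor on all 10 arrays, with Nkx2-1 nearest to it at a mean of 6.70. Levels of different probe sets are not otherwise compared with each other, since probes differ in how they bind. In whole lung, fewer type 2 cells and less RNA per cell cannot be told apart.

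The array medians lay between 7.69 and 7.73. Normoxia arrays 2, 3 and 4 stood apart, with a standard deviation over all probe sets of 1.89 to 1.93 against 1.99 to 2.05 on the other 7. With limma and Benjamini-Hochberg adjustment over all 22626 probe sets, 11.9% of probe sets and, with 1 probe set per gene, 12.5% of genes passed an adjusted p of 0.05, 8.93% higher and 3.60% lower after intermittent hypoxia. Over all probe sets the shares were 8.5% higher and 3.43% lower. Without those 3 normoxia arrays 16 probe sets passed, so the differences of genes named as having risen or fallen are also given without them. That comparison holds 7 arrays, with only normoxia 1 and normoxia 5 as controls. The part of the smaller control group in the calls lost there was not tested.

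On its brightest probe set, none of the 9 genes passed the test, against the 12.5% of all genes that did. The transcripts of the SP-A and SP-C proteins and of the phosphate transporter were at the same mean level in both groups to within 0.02 on the log2 scale. Abca3, Napsa and Lpcat1 were higher after intermittent hypoxia at an unadjusted limma p below 0.05 (3 of 9). The share of all genes under that unadjusted p is not given here, so the count is not read as a result about the 9 genes. SAM, the method named in the series' design text, passed 1 of 9, Lpcat1, beside 6492 of all 22626 probe sets. The differences of the 9 genes ran from -0.01 to 0.27 with a median of 0.09, beside a median of 0.01 over all genes, and 8 of 9 were above 0, beside 53.2% of all genes. Of the 9 genes 8 lay at or above the median level of all probe sets. Their median was 0.08 with 7 above 0, beside a median of 0.09 and 68.0% above 0 over the 7223 genes at or above that level.

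**Figure D1:**
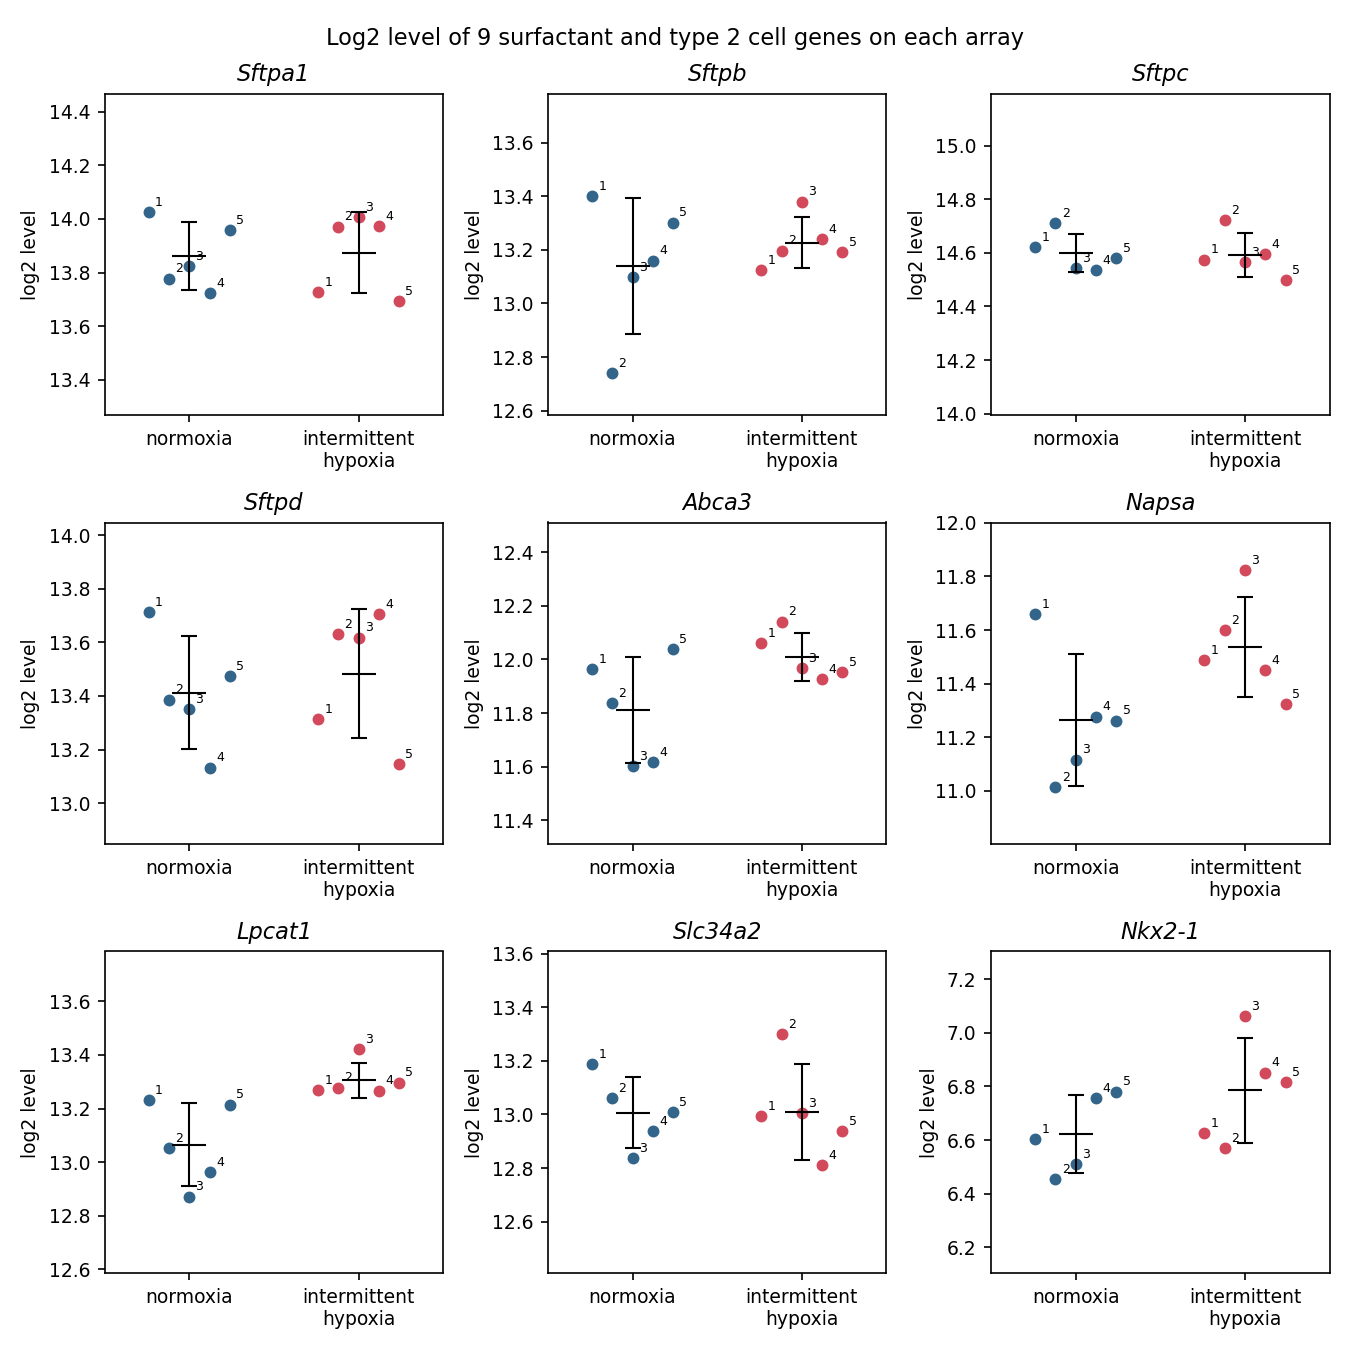
Log2 level (y axis, each panel spanning the same range of 1.2 units) of the 9 measured genes on each of 5 normoxia and 5 intermittent hypoxia arrays, numbered by replicate, with mean and SD. Only in the Lpcat1 panel do the 2 groups not overlap, with normoxia up to 13.23 and hypoxia from 13.27.

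SP-C is a hydrophobic peptide made only by type 2 cells in the lung. Sftpc read 14.62, 14.71, 14.54, 14.53 and 14.58 on normoxia arrays 1 to 5 and 14.57, 14.72, 14.56, 14.59 and 14.50 on hypoxia arrays 1 to 5. The groups overlapped throughout, and the highest value of each was on its array 2. The difference was -0.01 (SE 0.06, limma adjusted p = 0.942), a ratio of 0.994 with a 95% interval from 0.905 to 1.09. Sftpc lay near the top of the scale, where the highest value on any array was 14.94. Its other probe set, with a mean near 5.1 on the log2 scale, differed by 0.04.

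SP-B is needed to form lamellar bodies and tubular myelin. Sftpb read 13.40, 12.74, 13.10, 13.16 and 13.30 on the normoxia arrays and 13.13, 13.20, 13.38, 13.24 and 13.19 on the hypoxia arrays. Normoxia array 2 was the lowest of all and the hypoxia values lay inside the range of the normoxia ones. The difference was 0.09 (SE 0.11, limma adjusted p = 0.608), and it was -0.01 without normoxia array 2.

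The collectin genes Sftpa1 and Sftpd varied more between animals of a group than between groups. Sftpa1 read 14.03, 13.78, 13.82, 13.72 and 13.96 in normoxia and 13.73, 13.97, 14.01, 13.97 and 13.69 in intermittent hypoxia. In both groups some arrays were near 14.0 and others near 13.7. Its difference was 0.01 (SE 0.09, limma adjusted p = 0.933), with a 95% interval of the ratio from 0.888 to 1.15. A second, dimmer Sftpa1 probe set with a normoxia mean of 11.86 differed by 0.19 (SE 0.11, limma adjusted p = 0.283).

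Sftpd read 13.71, 13.39, 13.35, 13.13 and 13.47 in normoxia and 13.31, 13.63, 13.62, 13.71 and 13.14 in intermittent hypoxia. Each group held values near 13.1 and 13.7, and the difference was 0.07 (SE 0.12, limma adjusted p = 0.721). The arrays that were high for one collectin were high for the other. Over the 10 arrays, the deviations of Sftpa1 and Sftpd from their group means had a Pearson r of 0.948 and a Spearman rho of 0.939. The exact permutation p within groups was 0.000764 for r and 0.00278 for rho, or 0.0275 and 0.0912 after adjustment over all 36 pairs of the genes. Leaving out hypoxia arrays 1 and 5, the farthest from the median of Sftpa1, r was 0.924. The pair lies close together on chromosome 14, with Mbl1, another collectin gene, between them in RefSeq's annotation of GRCm38.p6.

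None of the other pairs passed after adjustment for r. Over all 36 pairs the median r was 0.466, with 32 above 0 and a range from -0.569 for Sftpc with Nkx2-1 to 0.948. Genes on an array also share its RNA preparation and hybridisation, and 7215 genes at or above the median level had a median r of 0.458 with the mean deviation of the 9 genes. The genes most alike to that mean over the 10 arrays were Rac1, a small GTPase of the cytoskeleton, with r of 0.978, Bcam, an adhesion molecule that binds laminin, with 0.978, Yipf1 with 0.974, Aldh16a1 with 0.969 and Fam107b with 0.963. These were picked as the highest of 7215 and carry no test.

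The genes for lipid remodelling and transport, Lpcat1 and Abca3, passed the test on some of their probe sets and not on others. All 3 probe sets of Lpcat1 pointed up. LPCAT1 is the acyltransferase that makes the dipalmitoyl phosphatidylcholine of surfactant. On the brightest of its 3 probe sets Lpcat1 read 13.23, 13.05, 12.87, 12.96 and 13.21 in normoxia and 13.27, 13.28, 13.42, 13.27 and 13.30 in intermittent hypoxia. The groups did not overlap, in 1 of the 9 genes, as in 8.61% of all genes, and normoxia arrays 1 and 5 came closest to the hypoxia arrays. The difference was 0.24 (SE 0.08, limma adjusted p = 0.0604), a ratio of 1.18 with a 95% interval from 1.05 to 1.33. SAM gave an adjusted p of 0.0211 and quantile normalization a limma adjusted p of 0.199.

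The other 2 probe sets of Lpcat1 rose. The middle one read 12.68, 12.34, 12.21, 12.27 and 12.64 in normoxia and 12.90, 12.88, 12.92, 12.78 and 12.79 in intermittent hypoxia. It rose by 0.43 (SE 0.09, limma adjusted p = 0.0158), a ratio of 1.34 with a 95% interval from 1.17 to 1.55. The dimmest read 10.84, 10.70, 10.36, 10.48 and 10.73 in normoxia and 11.12, 11.41, 11.11, 11.05 and 11.13 in intermittent hypoxia. It rose by 0.54 (SE 0.10, limma adjusted p = 0.00830), a ratio of 1.46 with a 95% interval from 1.26 to 1.69. Every hypoxia array lay above every normoxia array in all 3 probe sets. The mean of the 3 rose by 0.40 (limma adjusted p = 0.0111). Without normoxia arrays 2 to 4 the differences were 0.08, 0.20 and 0.38 from brightest to dimmest and none passed (limma adjusted p = 0.795, 0.409 and 0.212).

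**Figure D2:**
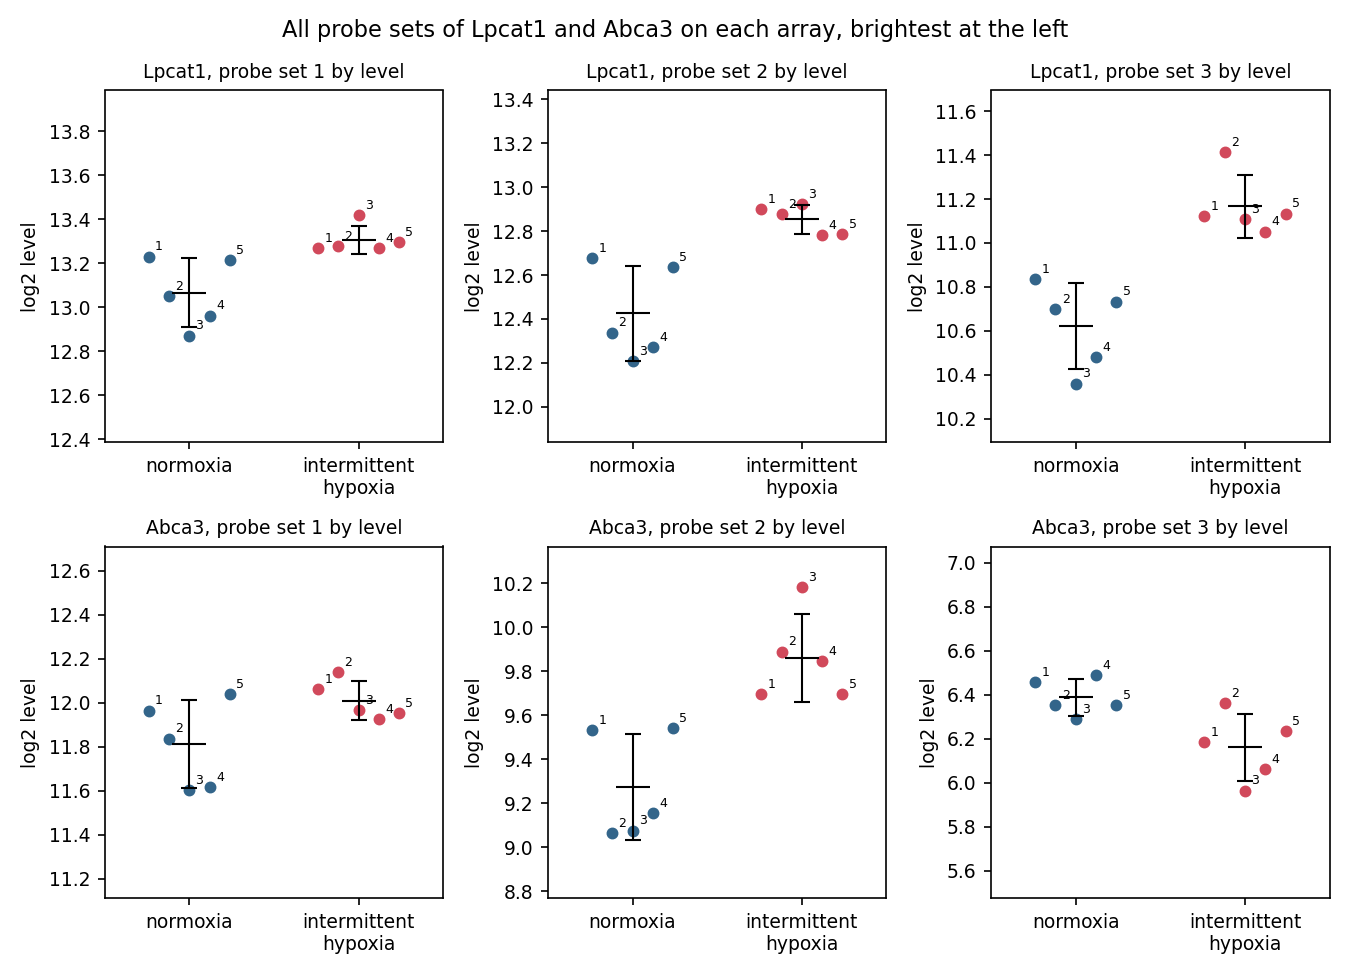
Log2 level (y axis, 1.6 units in each panel) on each array of the 3 probe sets of Lpcat1 (upper row) and the 3 of Abca3 (lower row), from brightest to dimmest, with mean and SD of 5 arrays. The middle and the dimmest probe sets of Lpcat1 and the middle one of Abca3 passed the test, by 0.43, 0.54 and 0.59, and the dimmest of Abca3 points down.

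ABCA3 is the transporter that loads phospholipid into lamellar bodies. On its brightest probe set Abca3 read 11.96, 11.84, 11.60, 11.62 and 12.04 in normoxia and 12.06, 12.14, 11.97, 11.93 and 11.95 in intermittent hypoxia. Normoxia arrays 3 and 4 were the lowest and normoxia array 5 lay above 3 of the hypoxia arrays. The difference was 0.20 (SE 0.09, limma adjusted p = 0.158). The middle probe set read 9.53, 9.06, 9.07, 9.16 and 9.54 in normoxia and 9.70, 9.89, 10.18, 9.85 and 9.70 in intermittent hypoxia, with no overlap. It rose by 0.59 (SE 0.12, limma adjusted p = 0.0128), a ratio of 1.5 with a 95% interval from 1.25 to 1.80, and without normoxia arrays 2 to 4 the difference was 0.33 (limma adjusted p = 0.400). The dimmest probe set differed by -0.23 (SE 0.08, limma adjusted p = 0.0750), and SAM gave it an adjusted p of 0.0255. The brightest and the middle probe set of Abca3 thus pointed up. After quantile normalization their differences were 0.04 and 0.48 (limma adjusted p = 0.610 and 0.0134). Without normoxia arrays 2 to 4 that of the brightest was 0.007 (limma adjusted p = 0.992). The dimmest, low in the range of signal with a normoxia mean of 6.39, pointed down and did not pass the limma test.

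**Figure D3:**
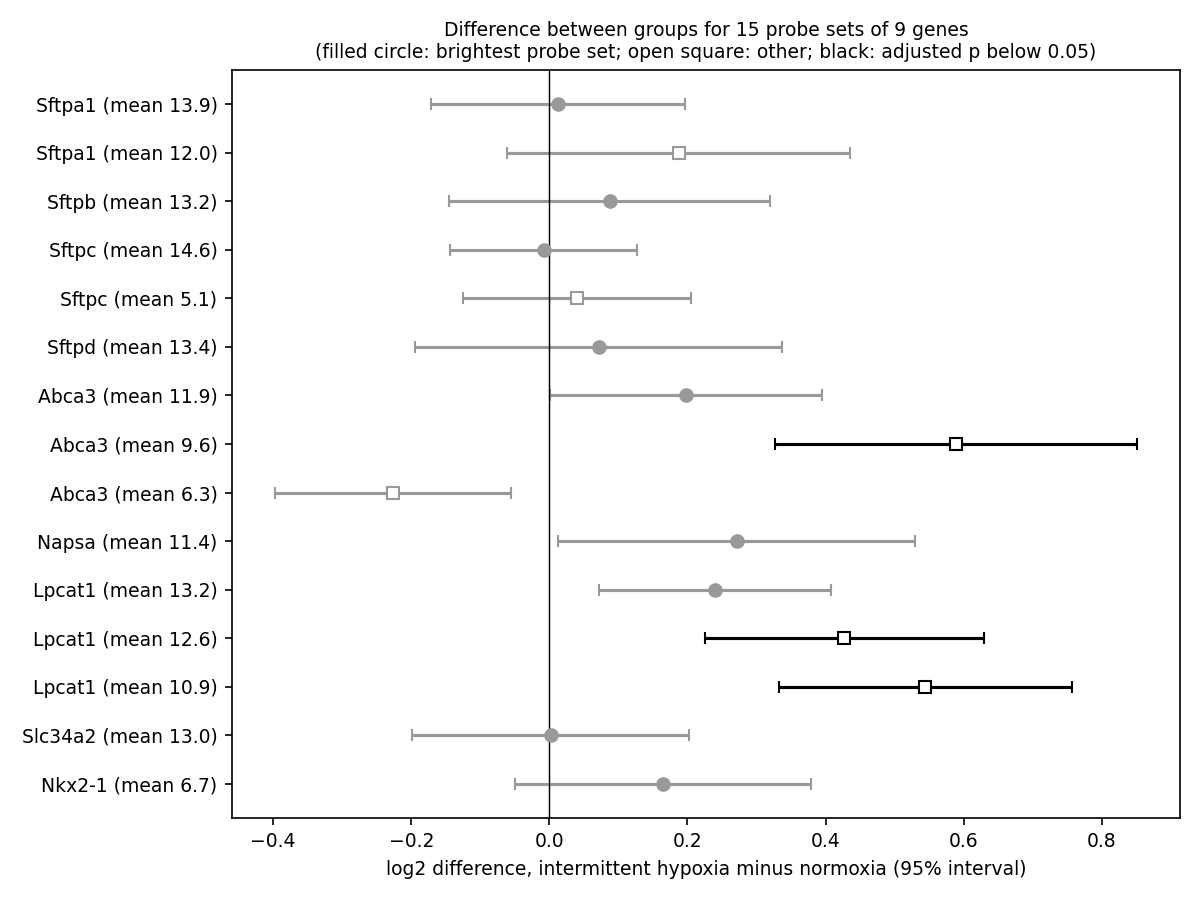
Log2 difference between intermittent hypoxia and normoxia (x axis) with its 95% interval for all 15 probe sets of the 9 genes, each labelled with its mean level. The 3 probe sets in black passed the test, and none of them is the brightest of its gene.

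Across the 15 probe sets, 3 passed, all higher, beside 8.5% of all probe sets. Probe sets with a mean level above 13, where the brightest ones of 6 of the 9 genes lie, passed as higher in 5.11% of 176 cases, with a median absolute difference of 0.09. Between 10 and 11, 20.7% of 1827 passed as higher, with a median absolute difference of 0.18. The median absolute difference was 0.07 below a level of 6, 0.19 between 11 and 12 and 0.18 between 12 and 13, so it was larger at higher levels up to 12 and small again only above 13. The part of level in the results of the surfactant protein genes was not tested.

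Napsin A, an aspartic protease, trims the SP-B precursor. Napsa read 11.66, 11.01, 11.12, 11.28 and 11.26 in normoxia and 11.49, 11.60, 11.82, 11.45 and 11.32 in intermittent hypoxia. Normoxia array 1 was the second highest of all 10, while the other 4 normoxia arrays lay below every hypoxia array. The difference of 0.27 (SE 0.12) did not pass (limma adjusted p = 0.142), with a ratio of 1.21 and a 95% interval from 1.01 to 1.44. It was 0.37 and passed (limma adjusted p = 0.0316) without normoxia array 1. After quantile normalization it was 0.11, and without normoxia arrays 2 to 4 it was 0.08. Neither passed (limma adjusted p = 0.497 and 0.920).

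SLC34A2 carries phosphate, a by-product of phospholipid recycling, out of the alveolar fluid. Slc34a2 read 13.19, 13.06, 12.84, 12.94 and 13.01 in normoxia and 12.99, 13.30, 13.00, 12.81 and 12.94 in intermittent hypoxia. Hypoxia array 2 was the highest and hypoxia array 4 the lowest, so the whole spread lay within 1 group. The difference was 0.00 (SE 0.09, limma adjusted p = 0.989), with a 95% interval of the ratio from 0.872 to 1.15.

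Nkx2-1, whose product activates surfactant genes, read 6.60, 6.45, 6.51, 6.76 and 6.78 in normoxia and 6.63, 6.57, 7.06, 6.85 and 6.82 in intermittent hypoxia. The groups overlapped, with hypoxia array 3 the highest. The difference was 0.16 (SE 0.10, limma adjusted p = 0.275), with a 95% interval of the ratio from 0.966 to 1.30.

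The 3 normoxia arrays with the narrow spread were also low for these genes. Taken over the 9 genes, the mean deviation from each gene's average over 10 arrays was -0.14, -0.17 and -0.13 on normoxia arrays 2, 3 and 4, and 0.12 and 0.04 on normoxia arrays 1 and 5. The 5 hypoxia arrays had means between -0.05 and 0.17. Without normoxia arrays 2 to 4 the median difference of the 9 genes was -0.01 and 4 of 9 were above 0, and after quantile normalization the median was 0.01 with 5 of 9 above 0.

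**Figure D4:**
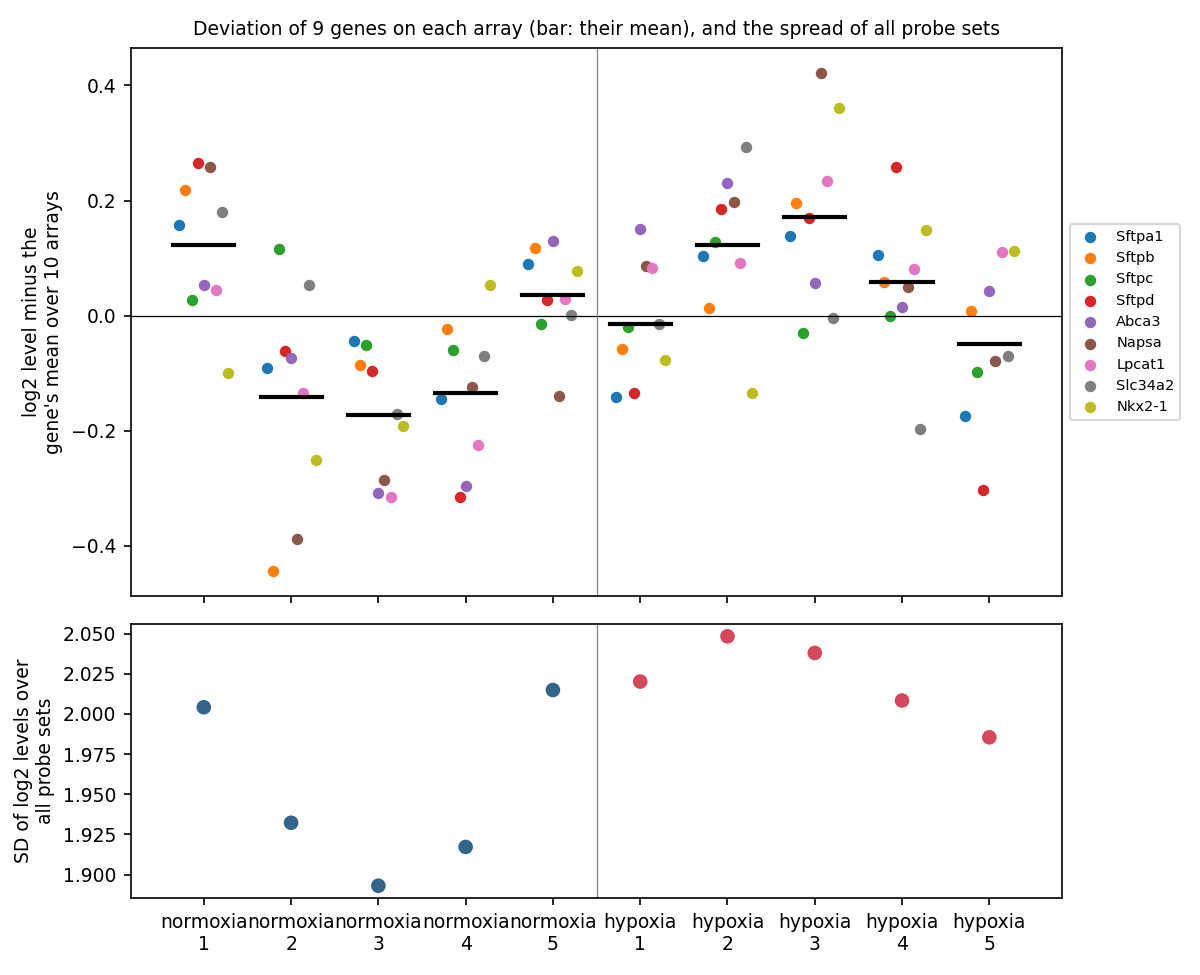
Upper panel: deviation of each of the 9 genes from its mean over 10 arrays (log2, points) on each array, with their mean as a bar. Lower panel: SD of the log2 levels of all 22626 probe sets on that array. The 3 arrays with the lowest SD, normoxia 2 to 4, also have the 3 lowest bars.

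Other genes of the surfactant system were taken from 5 lists of lipid synthesis, lamellar body and proprotein processing, transcriptional regulators, other type 2 cell products and surfactant clearance. The lists were chosen with earlier results of these data known, so their counts are not a test of the surfactant system. Of 88 measured genes 23 rose, 2 fell and 63 did not pass. Their median difference was 0.16, with 68 above 0. The 77 of them at or above the median level also had a median of 0.16, with 62 above 0, beside 0.09 and 68.0% over all genes at or above that level. Among all genes 8.93% were called higher, and among genes at or above the median level 13.6% were, with 3.00% lower. The mean level of the 88 genes per array lay between 9.95 and 10.27. Probe sets with a mean level between 9 and 10 had a median difference of 0.12, with 16.3% called higher. Between 10 and 11 the median was 0.16, with 20.7% called higher. The part of level in the counts of these lists was not tested. The count of higher genes fell from 23 to 14 after quantile normalization, with a median of 0.03. It fell to 8, 9 or 13 without normoxia array 4, 3 or 2, to 10, 11, 13 or 12 without hypoxia array 1, 2, 3 or 4, and to 0 without normoxia arrays 2 to 4 together. All 25 called genes kept their direction in that last comparison, and 9 of the 25 passed with any single array left out. These fits reuse arrays on which the 25 genes were called, so they are not a separate check of the calls.

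**Figure D5:**
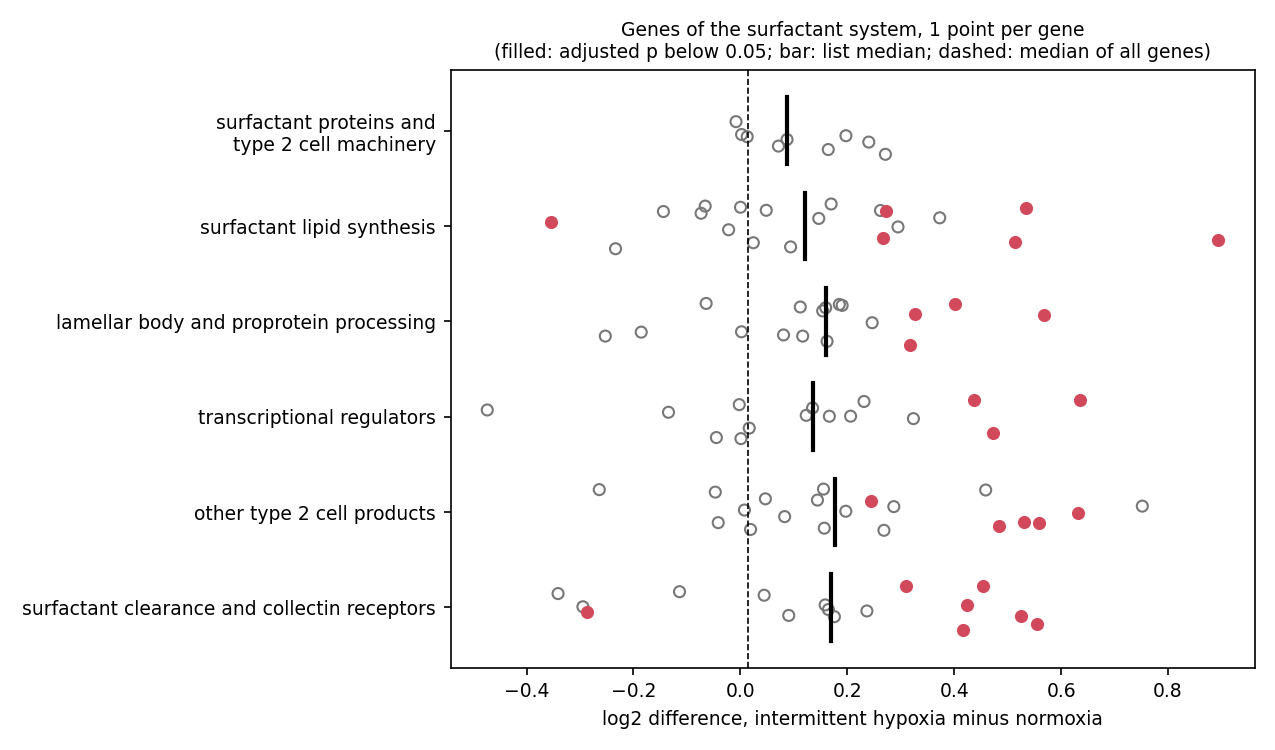
Log2 difference between intermittent hypoxia and normoxia (x axis) of each measured gene of the 9 surfactant and type 2 cell genes and of 5 further lists (rows). Filled points passed the limma test, bars are list medians and the dashed line is the median of all genes at 0.01. The top row has no filled point, and the rows below have 5 higher and 1 lower, 4, 3, 5, and 6 higher and 1 lower.

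In surfactant lipid synthesis 5 of 20 genes rose, 1 fell and 14 did not pass, with a median of 0.12. Elovl1, an elongase of very long chain fatty acids, rose by 0.89 (SE 0.14, limma adjusted p = 0.00521) to 1.86 times its normoxia level, and both of its other probe sets rose as well, by 0.99 and 0.90. The fatty acid binding protein gene Fabp5 rose by 0.51 (SE 0.13) and Lpcat3, another lysophospholipid acyltransferase, by 0.27 (SE 0.07), with limma adjusted p values of 0.0274 and 0.0285. Lpin1, a phosphatidate phosphatase that supplies diacylglycerol, fell by 0.35 (SE 0.05, limma adjusted p = 0.00482). The 5 normoxia arrays lay between 9.47 and 9.56 and the 5 hypoxia arrays between 9.07 and 9.22, without overlap. Its other probe set fell by 0.34. Elovl1 and Lpin1 passed with any single array left out, while Fabp5 and Lpcat3 did not, and after quantile normalization Fabp5 and Lpcat3 differed by 0.36 and 0.13 and did not pass (limma adjusted p = 0.0604 and 0.136). Without normoxia arrays 2 to 4 the differences of Elovl1, Fabp5, Lpcat3 and Lpin1 were 0.67, 0.35, 0.15 and -0.34, and none passed (limma adjusted p from 0.131 to 0.549).

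In the lamellar body and processing list 4 of 17 genes rose, none fell and 13 did not pass, with a median of 0.16. Snap23, a SNARE of membrane fusion, rose by 0.57 (SE 0.11, limma adjusted p = 0.0104). Of its 2 other probe sets 1 rose, by 0.37, and 1 differed by 0.03. Hps3, whose protein belongs to a complex that builds lysosome-related organelles, rose by 0.40 (SE 0.10, limma adjusted p = 0.0242). The annexin genes Anxa7 and Anxa2 rose by 0.32 and 0.33 on their brightest probe sets (limma adjusted p = 0.0349 and 0.0371), and none of their other probe sets passed. Snap23 alone of these 4 passed with any single array left out. With normoxia arrays 2 to 4 left out, the differences of Snap23, Hps3, Anxa7 and Anxa2 were 0.40, 0.19, 0.17 and 0.20, and none passed (limma adjusted p from 0.340 to 0.635). After quantile normalization Anxa7 and Anxa2 differed by 0.16 and 0.20, and Anxa7 did not pass (limma adjusted p = 0.0944).

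Among 15 transcriptional regulators 3 rose, none fell and 12 did not pass, with a median of 0.14. Nfib, needed for lung maturation, rose by 0.44 (SE 0.08, limma adjusted p = 0.00955), though none of its 3 other probe sets passed and 1 of them differed by -0.22. Etv5, which maintains type 2 cell identity in mice, rose by 0.63 (SE 0.18, limma adjusted p = 0.0415). Id2 rose by 0.47 (SE 0.12, limma adjusted p = 0.0297). Their other probe sets did not pass. That of Etv5 differed by 0.18 and those of Id2 by 0.34 and -0.21. Gata6 differed by 0.32 (SE 0.11, limma adjusted p = 0.0769). Nfib passed with any single array left out, and Etv5 and Id2 did not. The differences of Nfib, Etv5 and Id2 without normoxia arrays 2 to 4 were 0.30, 0.37 and 0.35, and none passed (limma adjusted p from 0.261 to 0.663). After quantile normalization Id2 differed by 0.36 and did not pass, and Nfib by 0.28 (limma adjusted p = 0.0797 and 0.00890).

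Of 20 other type 2 cell products 5 rose, none fell and 15 did not pass, with a median of 0.18. Cxcl15, the lung chemokine lungkine, had a normoxia mean of 13.21 ± 0.21 and a hypoxia mean of 13.69 ± 0.11 (SD, n = 5 each). It rose by 0.48 (SE 0.10, limma adjusted p = 0.0112), with normoxia arrays from 13.00 to 13.47 and hypoxia arrays from 13.53 to 13.82. Cxcl15 was 1 of the 176 probe sets with a mean above 13. Egfl6 rose by 0.63 (SE 0.11) and the calcium-binding protein gene S100g by 0.53 (SE 0.10), each with a limma adjusted p of 0.0083. Fgfr2, the receptor of FGF7 and FGF10, rose by 0.24 (SE 0.06, limma adjusted p = 0.0271). Cxcl15, Egfl6 and S100g passed with any single array left out, and Fgfr2 did not. Without normoxia arrays 2 to 4 the differences of Cxcl15, Egfl6, S100g and Fgfr2 were 0.30, 0.49, 0.51 and 0.23, and none passed (limma adjusted p from 0.211 to 0.371). After quantile normalization Fgfr2 differed by 0.09 and did not pass (limma adjusted p = 0.417).

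Surfactant is cleared by type 2 cells and by alveolar macrophages, which depend on the cytokine GM-CSF. Of 16 genes of clearance and collectin receptors 6 rose, 1 fell and 9 did not pass, with a median of 0.17. The shared beta chain of the GM-CSF receptor, Csf2rb, rose by 0.56 (SE 0.13), its paralog Csf2rb2 by 0.45 (SE 0.09) and the myeloid factor gene Spi1 by 0.52 (SE 0.11), with limma adjusted p values of 0.0184, 0.0133 and 0.0142. The probes of the near-identical pair Csf2rb and Csf2rb2 may share transcripts. Both lie low in the range of signal, with normoxia means of 6.43 and 6.13, which limits what they can show. Sirpa, a receptor of the collectin head domain, rose by 0.42 (SE 0.10, limma adjusted p = 0.0207), and its 2 other probe sets did not pass. Csf2rb2 and Spi1 passed with any single array left out, Csf2rb lost its call without normoxia array 4, and Sirpa lost it without any of 4 arrays. With those 3 normoxia arrays left out, the differences of Csf2rb, Csf2rb2, Spi1 and Sirpa were 0.41, 0.34, 0.29 and 0.32, and none passed (limma adjusted p from 0.375 to 0.437). After quantile normalization Sirpa differed by 0.26 and did not pass (limma adjusted p = 0.0539).

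Markers of other cells are set beside the shares over all genes, 8.93% called higher and 3.60% lower, with 53.2% of differences above 0. By mean level, 10.9% of probe sets between 8 and 9 were called higher, 20.7% between 10 and 11 and 15.2% between 12 and 13. The marker lists were also chosen with earlier results known. Of 11 alveolar macrophage markers 3 rose, none fell, and their mean level per array lay between 8.40 and 8.63 in normoxia and between 8.35 and 8.92 after intermittent hypoxia. Cd68 and Itgax rose by 0.74 and 0.66, and Siglecf, the dimmest of the 11 with a mean of 4.83, lay near the floor of the arrays. The difference farthest from 0 in that list pointed down, -1.24 for the fatty acid binding protein gene Fabp4, which did not pass (limma adjusted p = 0.0504). Marco and Car4 differed by 0.04 and -0.02, and these last 3 genes were chosen after their values were seen. Of 10 pan-epithelial markers none passed, with a median of 0.18 and mean levels from 9.77 to 10.04 and from 9.98 to 10.11. Of 9 type 1 cell markers 4 rose and 1 fell, among them Aqp5 by 0.53 and Cyp2b10, which fell by 0.40, with mean levels from 11.60 to 12.00 and from 11.86 to 12.10. Of 10 airway markers 1 fell, Reg3g, by 0.76, and all 10 differences were below 0, with mean levels from 12.15 to 12.42 and from 11.88 to 12.21. Of 10 endothelial markers 1 rose, Emcn, and 1 fell, Ramp2, with mean levels from 10.86 to 11.34 and from 11.21 to 11.39. Of 10 fibroblast markers 4 rose, among them Col1a1 and Col3a1 by 0.80 and 0.78, with mean levels from 10.90 to 11.32 and from 11.30 to 11.58. A second, dimmer Col1a1 probe set was 0.22 higher without passing (limma adjusted p = 0.132), and a second one of Col3a1 rose by 1.19. Emcn still passed without normoxia arrays 2 to 4, at 0.91 (limma adjusted p = 0.00775). The differences of Cd68, Itgax, Aqp5, Col1a1 and Col3a1 were then 0.55, 0.50, 0.32, 0.54 and 0.44, those of Cyp2b10, Reg3g and Ramp2 -0.43, -0.85 and -0.39, and none of these 8 passed. The part of these cells in the results for the surfactant genes was not tested.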

How the data were processed

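The values were log2 probe set levels of 10 Affymetrix Mouse Genome 430A 2.0 arrays as deposited by the authors. RMA and affy are named, without versions or settings, per the submitters' processing notes. The log2 scale was read from the values. No source used here states whether all arrays were normalized together. Each array gives its own levels, not ratios. No probe set was filtered, and precision is limited by having 5 arrays per group.

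Gene symbols came from the platform's annotation table, which gave 1 symbol to 20380 of 22626 probe sets, several to 691 and none to 1555. Where a gene had several probe sets, the brightest by mean level stood for it. Groups were taken from the sample titles. They were compared with limma 3.58.1 (lmFit, eBayes) in R 4.3.3 by two-sided tests. The p-values were adjusted by the Benjamini-Hochberg method across the whole table, and 0.05 was the threshold. They measure the spread between animals.

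The 10 genes and the lists were chosen with earlier results of these data known. Named genes were all members and all their probe sets, up to 4 genes with the smallest p of each surfactant list, up to 2 of each marker list, and the 5 genes most alike. Same-numbered arrays of the 2 groups were checked for pairing, and their deviations correlated from -0.240 to 0.223, with 2 of 5 pairs above 0.1, so the numbers were not taken as pairs. Alternatives were SAM with 100 drawn permutations, a replicate block, quantile normalization, median centring, a filter at the median level, eBayes trend and robust options, arrayWeights, a threshold of 0.10, averaged probe sets, each array left out, and normoxia arrays 2 to 4 left out. SAM with the mean instead of the median number of false calls was chosen after seeing the data. On simulated data of 22626 probe sets, limma recovered 73% of probe sets changed by 0.5 on the log2 scale and 98% of those changed by 1, with 5.00% of its 180 calls on unchanged ones, and SAM recovered 74% and 98%, with 6.52% of 184. The simulated noise was normal and independent between probe sets, with no arrays of narrow spread. These shares therefore do not carry over to the real arrays, and changes below 0.5 were not simulated.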

Additional observations from a re-analysis of the deposited data

Results flagged for a closer look

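Of 18 sets of 5 arrays, 9 genes in 2 groups, 1 held a value far from the others. Lpcat1 on its brightest probe set read 13.42 on hypoxia array 3, while the other 4 hypoxia arrays lay between 13.27 and 13.30, and the gap made up 0.809 of the group's range against a critical value of 0.71. Chance alone gives such a value in about 1 of 20 sets. Without that array the difference of Lpcat1 was 0.21.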

How the results depend on the processing

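Of 22626 probe sets 2699 passed. SAM passed 6492, SAM with the mean number of false calls 3517, arrayWeights 4132 and a threshold of 0.10 4954. Leaving out 1 array gave 1003 to 4800, and 16 passed without normoxia arrays 2 to 4. With the replicate number as a block 1755 passed, and the block changed no call among the 9 genes, while 4 of the 10 arrays correlated best with the array of their own number. Higher calls made up 71.2% of the total, and 59.1% after quantile normalization. Of the 9 genes 0 were called higher, against 1 (Lpcat1) by SAM, by SAM with the mean number of false calls, with arrayWeights, at a threshold of 0.10 and with a gene's probe sets averaged. Leaving out 1 array gave 0 to 2, with 2 (Napsa and Lpcat1) without normoxia array 1 and 1 (Lpcat1) without normoxia array 5. None was called lower under any of these. Of the 88 other surfactant genes 23 were called higher, 14 after quantile normalization, 8 to 30 without 1 array and 0 without normoxia arrays 2 to 4. The 2 lower calls became 4 by SAM, 1 with the replicate block, 1 to 5 without 1 array and 0 without normoxia arrays 2 to 4.

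Differences near 0 changed sign without passing the test. After quantile normalization they were -0.017 for Sftpa1, -0.020 for Sftpb, 0.011 for Sftpc, -0.014 for Sftpd, -0.13 for Slc34a2 and -0.034 for Rac1. Without normoxia arrays 2 to 4 they were -0.12 for Sftpa1, -0.12 for Sftpb, -0.11 for Sftpd, -0.089 for Slc34a2, -0.020 for Rac1 and -0.070 for Aldh16a1. Sftpc was 0.016 with the mean of its probe sets. Slc34a2 was -0.0042 with arrays centred on their medians and -0.027 with arrayWeights. Leaving out 1 array gave -0.022 to 0.058 for Sftpa1, -0.013 to 0.15 for Sftpb, -0.041 to 0.020 for Sftpc, -0.071 to 0.052 for Slc34a2 and -0.017 to 0.077 for the dim probe set of Sftpc. The cause of these changes was not tested. The filter at the median level left out Nkx2-1, and averaging probe sets gives no count of probe sets. Nkx2-1, Csf2rb, Csf2rb2 and the dim probe sets of Sftpc and Abca3 lie low in the range of signal, which limits what they can show.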
